A study of Mus musculus with 30 samples.

Results

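The genes described here are the zinc finger protein genes of an array survey of adult mouse tissues. They were picked by name alone, as the probes whose symbol in the study's supplementary probe lists begins with Zfp, Zbtb, Zscan, Zkscan or Zc3h. The rule found 42 of the 25,030 probes, each for a different gene. Of these, 26 were Zfp genes, 10 were Zbtb genes, 4 were Zc3h genes, 2 were Zkscan genes and 0 were Zscan genes. Only 5,622 of the 25,030 probes had a symbol in these lists, so the 42 are not the whole family. Moreover, 38 of the 42 came from a list that the study had sorted by the responsiveness of genes to transcription factor induction in embryonic stem (ES) cells, of which the least responsive 1,994 probes were used here. The other 4 (Zbtb37, Zbtb41, Zfp281 and Zfp451) came from a list of genes on chromosome 1. The 42 were therefore set beside all probes tested and, for the main counts and the promoters, also beside the other 1,956 probes of the responsiveness list, and they do not stand for zinc finger genes at large.

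RNA came from 15 tissues of male C57BL/6 mice aged 28 weeks. That age stands in the labels, and the paper states a different one. The tissues were bladder, bone, brain cortex, cerebellum, eyes, fat, heart, kidney, large intestine, liver, lung, muscle, skin, small intestine and stomach. Each tissue had 2 arrays, which makes 30 in all, and the mice carried no transgene and received no treatment per the labels. Tissue RNA was labelled with Cy3 and hybridised against one Cy5-labelled reference, made from a universal mouse reference RNA with ES cell RNA added. The replicates were taken from different animals according to the series text, which also states a single replication for bone and fat, although both have 2 arrays. For both bone arrays and 1 fat array the individual's identifier in the labels carried another replicate number than the title. Values are log2 ratios of tissue to reference, so that a value above 0 means more RNA for the probe in the tissue than in the reference. In whole tissues, fewer cells of a type and less RNA per cell cannot be told apart.

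Zinc finger proteins fold short stretches of peptide around a zinc ion and are among the most numerous regulators in mammals. C2H2 proteins, which are most of the Zfp genes, mainly bind DNA. Many of them carry a KRAB domain, which recruits the co-repressor Trim28, or a BTB domain (the Zbtb genes), which pairs subunits and recruits co-repressors or the ubiquitin ligase scaffold Cul3. Zkscan proteins carry a SCAN domain, and CCCH proteins (Zc3h) mostly bind RNA. In the brain, members of the family take part in the formation and upkeep of neurons. Zbtb8os stands in the list only because of its name, since it encodes archease, a helper of the tRNA ligase, and not a zinc finger protein. Zfpl1 encodes a Golgi membrane protein with zinc-binding domains.

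Each gene was read by 1 probe of 60 bases. The start of the probe is printed for the 6 members called in the brain comparison, because every value below depends on which stretch of the transcript was measured. Only the first 30 bases are given, in lower case, since many such probes lie near the end of the transcript.
Zfp385c probe, first 30 bases: atcgtgggggccggcagggacccagccctc
Zfp286 probe, first 30 bases: taggtgaaggttggctttattgctgcgttt
Zfp142 probe, first 30 bases: atgtgtccttgtgtctagtgctctgtaacg
Zfp281 probe, first 30 bases: ggacttcagtgtcagatttctcagggtata
Zbtb8 probe, first 30 bases: agaccatggatgaatggtgcactagaaggt
Zbtb1 probe, first 30 bases: acttatattaagtgtaaatcccaatgactt

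Of the 42 probes, 2 shared a run of 20 bases with another probe of the array (Zbtb8os and Zfp410, 1 other probe each). The linker between C2H2 fingers is conserved, and a probe placed on it could detect many genes. A degenerate pattern for the bases of this linker was in 0 of the 42 member probes and in 0.0559% of all probes of the table, searched on the probe's own strand.

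Promoters are shown for the members that were higher in brain and for Zbtb17, which was highest in muscle. RefSeq windows on GRCm38.p6 were matched for 35 of the 42 genes, and each window spans 300 bases around a transcript start. The printed part is the 250 bases before the start. Capitals mark every match, on either strand, to GABP (CCGGAAGT), the palindromic consensus of NRF1, YY1 (AAGATGGCG), the GC box (GGGCGG), the CCAAT box (CCAAT) or TATAAA. None of these motifs contains another, although matches of 2 motifs could overlap. Zbtb8 is an older name of Zbtb8b, and Zfp286 was not among the matched genes.
Zfp385c promoter, chr11:100692467-100692716, minus strand: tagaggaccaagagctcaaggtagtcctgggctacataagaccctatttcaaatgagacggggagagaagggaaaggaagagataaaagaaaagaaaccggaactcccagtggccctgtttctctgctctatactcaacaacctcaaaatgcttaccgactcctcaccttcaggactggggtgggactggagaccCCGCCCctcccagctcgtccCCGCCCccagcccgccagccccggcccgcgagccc
Zfp142 promoter, chr1:74588029-74588278, minus strand: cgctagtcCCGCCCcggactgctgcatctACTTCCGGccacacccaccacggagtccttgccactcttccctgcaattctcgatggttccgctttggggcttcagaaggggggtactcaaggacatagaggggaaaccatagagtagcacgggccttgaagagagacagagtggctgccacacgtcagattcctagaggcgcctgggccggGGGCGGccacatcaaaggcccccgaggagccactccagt
Zfp281 promoter, chr1:136624651-136624900, plus strand: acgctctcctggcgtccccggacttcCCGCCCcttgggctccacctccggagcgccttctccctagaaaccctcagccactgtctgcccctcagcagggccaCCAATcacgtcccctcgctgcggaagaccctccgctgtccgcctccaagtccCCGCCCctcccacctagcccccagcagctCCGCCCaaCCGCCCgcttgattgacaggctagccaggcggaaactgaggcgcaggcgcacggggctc
Zbtb8b promoter, chr4:129440819-129441068, minus strand: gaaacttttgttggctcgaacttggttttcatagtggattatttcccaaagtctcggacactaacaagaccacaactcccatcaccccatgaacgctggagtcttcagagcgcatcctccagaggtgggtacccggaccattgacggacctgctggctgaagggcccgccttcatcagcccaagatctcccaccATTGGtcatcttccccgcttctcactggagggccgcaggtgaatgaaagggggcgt
Zbtb17 promoter, chr4:141444423-141444672, plus strand: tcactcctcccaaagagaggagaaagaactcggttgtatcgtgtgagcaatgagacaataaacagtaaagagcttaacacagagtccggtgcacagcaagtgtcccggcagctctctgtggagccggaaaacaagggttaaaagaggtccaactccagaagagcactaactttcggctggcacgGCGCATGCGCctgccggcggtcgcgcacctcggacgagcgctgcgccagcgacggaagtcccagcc

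The upstream stretch of Zfp142 held 1 GABP match and 2 GC boxes, that of Zfp281 held 4 GC boxes and 1 CCAAT box, and that of Zbtb17 held 1 NRF1 match. The printed stretch of Zfp385c, that of its most upstream start, held 2 GC boxes, whereas the windows of its other 2 starts in the table held none of the motifs, and the stretch of Zbtb8b held only 1 CCAAT box. Among the printed stretches of the members higher in brain, GABP was matched only in that of Zfp142, and NRF1 and YY1 in none. Across the whole 300-base windows, YY1 was matched in 5 of the 35 genes (Zbtb22, Zc3h11a, Zfp341, Zfp617 and Zfp68), against 2.14% of the 17,492 protein-coding genes in the table and 6.25% of the 1,553 genes with a window among the other genes of the responsiveness list. GABP was matched in 5 (Zbtb37, Zbtb41, Zfp142, Zfp384 and Zfp653), against 5.69% and 16.9%, and NRF1 was matched in 3 (Zbtb17, Zbtb41 and Zfp653), against 1.47% and 3.41%. TATAAA was matched in 1 gene, against 14.8% and 7.41%. Windows of the members held a median of 22 CpG dinucleotides, against 13 over all genes and 22 over the other genes of the list, with a range from 1 to 45. The GC box was matched in 71.4% of the 35 genes, against 49.2% and 67.3%, and the CCAAT box in 40%, against 42.3% and 44.3%. These shares describe the 35 genes and were not tested.

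The RNA of the zinc finger genes was detected almost everywhere. All 42 probes passed the filter on dim probes, which asked that 1 tissue or more had Cy3 clear of background on each of its arrays, and which kept 21,025 probes. Of the 42, 39 were well above background on all 30 arrays, against 56.2% of the probes tested and 98.4% of the other probes of the responsiveness list. The exceptions were Zbtb3 (29 arrays), Zbtb8 (18 arrays) and Zbtb37 (8 arrays). The mean log2 brightness of the members over both channels had a median of 10.3, which lay between 8.89 for all probes tested and 11.6 for the other probes of the responsiveness list.

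The mean log2 ratio of a member over arrays, on a scale that the normalization centres near 0 on each array, ranged from -1.12 to 0.86. Its median was -0.01 among the members, against 0.12 for all probes tested and -0.14 for the other probes of the responsiveness list. In 5 genes the mean was below 0 in all 15 tissues, against 9.98% of probes tested and 19.1% of the rest of the list: Zbtb3, Zfp341, which acts upstream of STAT3 transcription, Zfp451, a SUMO ligase, Zfp511 and Zkscan17. Only Zfp385c and Zkscan14 were above 0 in all 15 tissues, against 8.15% of probes tested.

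**Figure D1:**
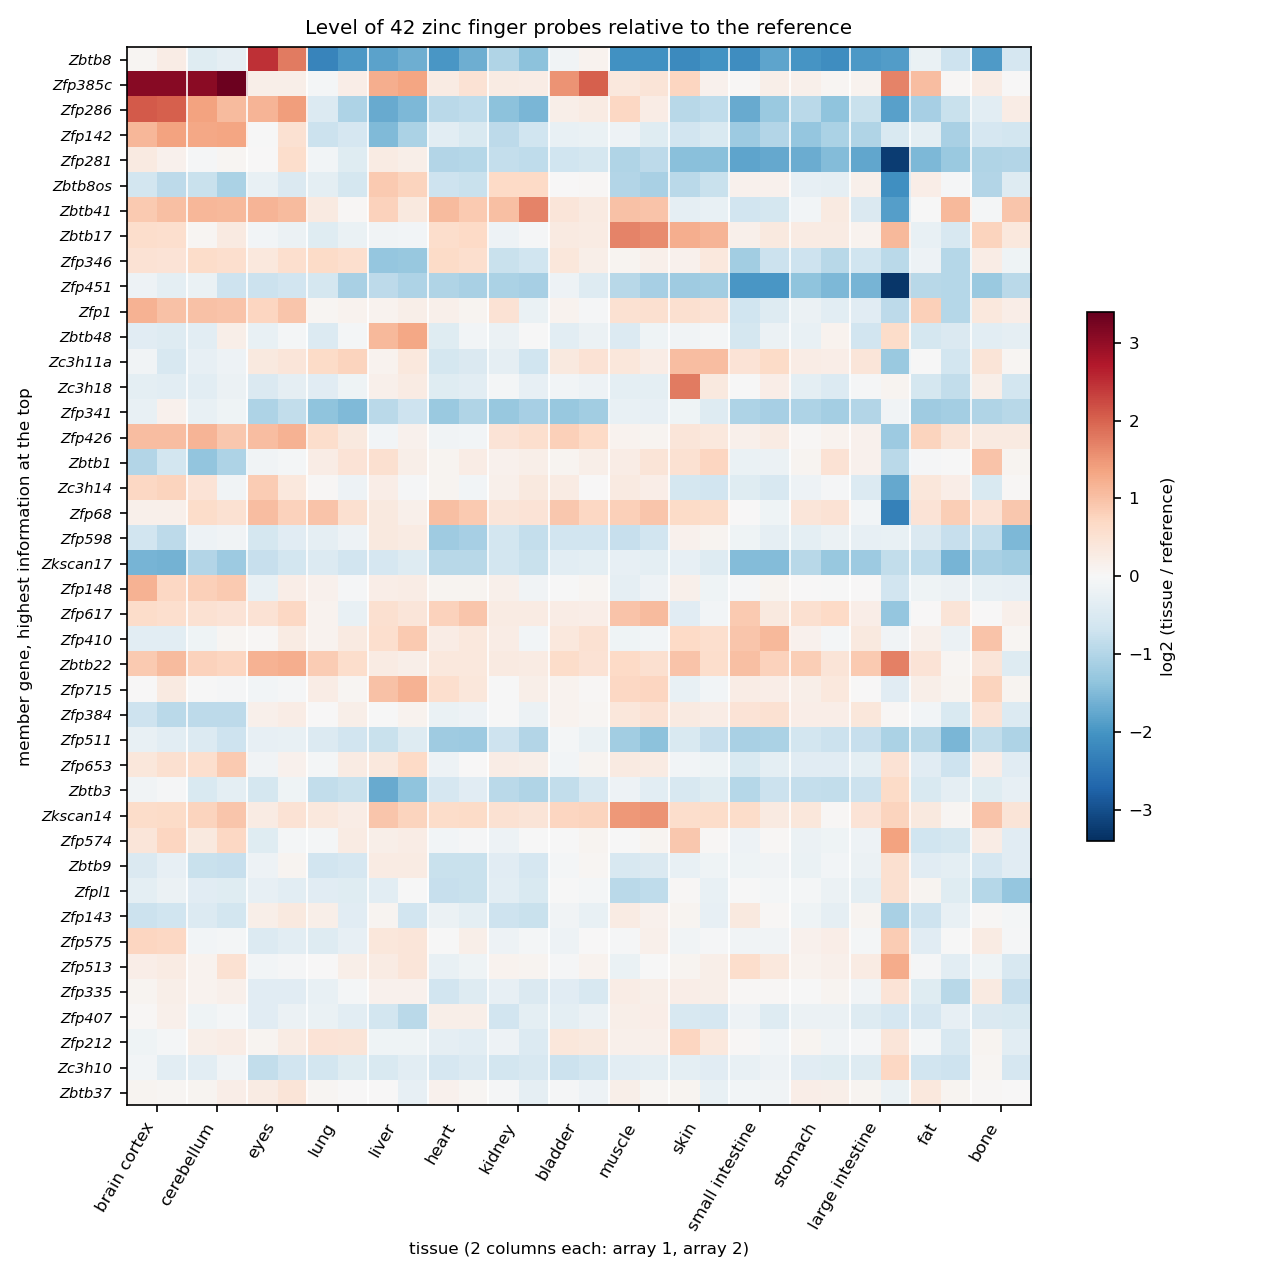
Log2 ratio of tissue to reference for the 42 members (rows, highest information at the top) on the 30 arrays (2 columns per tissue). Most rows stay pale, the upper rows are deep red in brain cortex, cerebellum or eyes, and the second large intestine column departs from the first.

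Differences among tissues were common but small. In limma's moderated F-test over the 15 tissues, 38 of 42 members passed at an adjusted p of 0.05 (Benjamini-Hochberg over all probes tested), close to 90.7% of the probes tested and 94.3% of the other probes of the responsiveness list. The 4 that did not pass were Zc3h10 (adjusted p = 0.156), Zfp574 (adjusted p = 0.103), Zbtb37 (adjusted p = 0.0775) and Zfp143 (adjusted p = 0.0526), an activator of small nuclear RNA genes and many other promoters. These 4 did pass with scan day as a random block and without large intestine, fat and bone, both settings chosen after seeing the data. The range between the highest and the lowest tissue mean had a median of 1.43 on the log2 scale, against 2.33 for all probes tested and 1.78 for the other probes of the responsiveness list.

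Unevenness across tissues was expressed as information, which is 0 bits for a gene spread evenly over the 15 tissues and 3.91 bits for a gene present in 1 tissue alone. The members had a median of 0.0529 bits (0.00808 to 0.809), against 0.159 for all probes tested and 0.0792 for the other probes of the responsiveness list. Under 0.1 bit lay 33 of the 42 members (78.6%), against 38.5% of probes tested and 60.1% of the rest of that list. At least 1 bit was reached by 0 members, against 10.3% of probes tested and 0.665% of the rest of the list, although from Agilent's processed signals Zbtb8 reached 1.61 bits. By name, the median was 0.0740 bits for the 10 Zbtb genes, 0.0680 for the 4 Zc3h genes, 0.0483 for the 26 Zfp genes and 0.0466 for the 2 Zkscan genes.

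The 5 most uneven members were Zbtb8 (0.809 bits, highest in eyes), Zfp385c (0.541 bits, highest in cerebellum), Zfp286 (0.516 bits, highest in brain cortex), Zfp142 (0.278 bits, highest in cerebellum) and Zfp281 (0.195 bits, highest in eyes). The 5 most even were Zbtb37 (0.00808 bits), Zc3h10 (0.0183 bits), Zfp212 (0.0258 bits), Zfp407 (0.0268 bits) and Zfp335 (0.0286 bits), a subunit of histone H3 methyltransferase complexes that neural progenitors need. For Zbtb37 the low value has little content, because only cerebellum and eyes had both arrays clear of background in Cy3, and the log2 ratio of a dim probe is drawn toward 0. Zc3h10, Zfp212, Zfp407 and Zfp335 were above background on all 30 arrays.

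**Figure D2:**
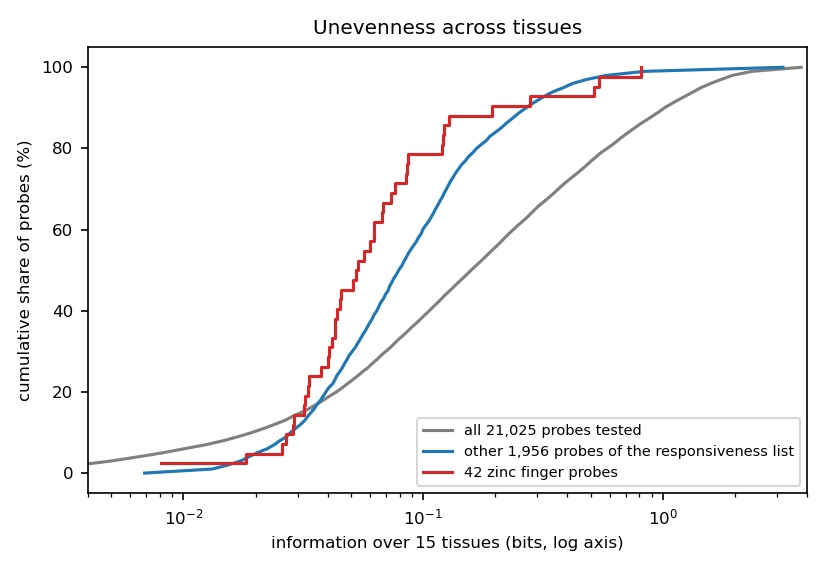
Cumulative share of probes (%) against information in bits (log axis) for the 42 members, the other 1,956 probes of the responsiveness list and all 21,025 probes tested. The curve of the members lies left of both others over most of its course, with medians of 0.0529, 0.0792 and 0.159 bits.

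Each tissue was then compared with the mean of the other 14. A gene was called at an adjusted p under 0.05 in limma and a log2 difference of at least 1 in size. These comparisons share arrays with one another. By this rule 9 of the 42 members (21.4%) were higher in at least 1 tissue, against 67.3% of probes tested and 46.1% of the other probes of the responsiveness list. Lower in at least 1 tissue were 11 members (26.2%), against 46.7% of probes tested and 39.1% of the rest of the list. Either call was made for 17 members (40.5%), against 71.5% of probes tested and 58.1% of the rest of the list, so that 25 members had no call by this rule. These counts moved with the scaling and with 1 tissue. With median centring of each array 18 members were higher, 17 lower and 24 either (70.2% of probes tested), and with Agilent's processed signals 14, 16 and 22 (88.1%). Without large intestine array 1 the counts were 16, 15 and 24 (75.8%), and without its array 2 they were 9, 7 and 13 (69.6%).

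The calls were spread unevenly over tissues, as they were over all probes tested. Higher calls were most frequent in brain cortex, with 5 members (11.9%), against 15.1% of probes tested, which was also the largest share of higher calls over all probes. Cerebellum had 3 (13.5% of probes tested), eyes 3 (13.1%) and liver 3 (11.3%), and kidney (9.81%), bladder (7.89%), muscle (10.6%) and skin (9.77%) had 1 each. Lower calls were most frequent in large intestine, with 7 members (11.1% of probes tested), an order that rested on 1 of its arrays, since without array 2 large intestine and liver had 2 each. Then came liver with 3 (14.8%) and small intestine with 2 (9.76%). Cerebellum (14.9%), lung (7.56%), kidney (9.46%), muscle (15.9%), skin (6.18%) and stomach (5.34%) had 1 lower call each. Those in lung, muscle, skin and stomach were all of Zbtb8, with log2 differences from -1.05 to -1.01, and each fell short of the threshold in the Cy3 channel alone. In muscle the probe was not well above background on either array, so the difference there is not exact. With the values deposited by the authors it was -2.67 in muscle and -1.58 in skin, but -0.98 in lung and -0.88 in stomach, short of the threshold. Of tissues with a call in one direction, 0 members were lower in brain cortex (14.2% of probes tested), eyes (6.95%) and bladder (5.74%), and 0 were higher in lung (12%), small intestine (11.2%), stomach (9.23%) and large intestine (10.7%). Heart (9.68% of probes higher, 9.16% lower), fat (6.43% and 5.37%) and bone (8.5% and 7.95%) had none in either direction.

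In 9 of these calls, each of a different member, both arrays of the tissue lay beyond all the other 28 arrays. Called higher in this way were 6 members (14.3%), against 42.7% of probes tested and 30.8% of the rest of the list, and called lower were 3 (7.14%), against 19.8% and 15.5%. The strongest was Zbtb8 in eyes. Its log2 ratio was 2.49 and 1.76 on the eye arrays, whereas the other 28 arrays ran from -2.24 through a median of -1.81 to 0.24. The eye arrays were far above the rest, and the log2 difference was 3.48 ± 0.23 (SE), an 11.1-fold excess (adjusted p = 4.12e-10 in limma). Next in order came brain cortex (mean 0.16), bladder (mean -0.00), cerebellum (mean -0.36) and fat (mean -0.46), and the 2 fat arrays, at -0.21 and -0.72, overlapped with cerebellum at -0.40 and -0.32. In 6 tissues (liver, heart, muscle, small intestine, large intestine and bone) the probe was not well above background on either array. Their levels are only bounds, so the difference from the other 14 tissues is not exact, and it was 5.36 with processed signals. Against these 6 the eyes were at least 10.3-fold higher (bone) to at least 16.2-fold higher (large intestine). The bound was taken from normalized Cy3 levels and the lowest signal well above background on each array, or from the log2 ratios where these gave the smaller fold.

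In liver 4 members stood apart, 2 in each direction. Zbtb48, which binds telomeric repeats and limits telomere length, had log2 ratios of 1.11 and 1.33 in liver and from -0.64 through a median of -0.25 to 0.63 elsewhere. The difference was 1.45 ± 0.21 (adjusted p = 1.27e-05 in limma), and it was 0.99 with median centring of each array, short of the threshold. Zbtb8os, the archease gene, reached 0.88 and 0.75 in liver, and the 28 other arrays ran from -2.09 through a median of -0.46 to 0.67. Its difference was 1.25 ± 0.30 (adjusted p = 0.00185 in limma). The nearest arrays were those of kidney, at 0.67 on both, which was also called higher (log2 difference 1.1 ± 0.30, adjusted p = 0.00643 in limma). Without kidney array 1 or array 2 that call was lost (adjusted p = 0.069 and 0.0716 in limma).

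Zfp346, a protein that binds double-stranded RNA, was at -1.30 on both liver arrays, against -1.18 to 0.64 elsewhere with a median of 0.18. The difference was -1.27 ± 0.15 (adjusted p = 1.12e-06 in limma). The lowest of the other arrays was one of small intestine. Zbtb3 was at -1.72 and -1.38 in liver and from -1.03 to 0.65 elsewhere, a difference of -1.04 ± 0.21 (adjusted p = 0.000333 in limma). Its probe was well above background on 1 of the 2 liver arrays, and without liver array 1 the difference was -0.87 and fell short of the threshold, as it did without large intestine array 2 (just under 1 in size) and without large intestine, fat and bone (-0.98). With processed signals it was -2.52.

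Zbtb17 encodes Miz-1, the partner through which Myc represses genes. It had log2 ratios of 1.69 and 1.62 in muscle, against -0.53 to 1.24 elsewhere with a median of 0.28 (log2 difference 1.40 ± 0.16, adjusted p = 6.8e-07 in limma). The next highest arrays were those of skin, at 1.24 and 1.17. In skin the muscle genes Actn3, Ankrd23 and Mstn were also raised, with mean log2 ratios of 3.66, 4.33 and 4.77 against 4.90, 6.58 and 7.60 in muscle. In bone they were at 5.49, 7.21 and 3.99 while Zbtb17 was at 0.76 and 0.35, and in eyes at 1.44, 3.86 and 2.44 while Zbtb17 was at -0.08 and -0.21. The skin arrays differed in these genes (Actn3 2.33 and 4.98, Mstn 2.92 and 6.62), while Zbtb17 was nearly the same on both. The part of muscle tissue in the skin, bone and eye values was not tested.

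Zc3h18 links the nuclear cap-binding complex to RNA decay. Its 2 skin arrays differed widely, at 1.77 and 0.34, and the second was barely above the highest of the others (0.29). The log2 difference was 1.29 ± 0.22 (adjusted p = 0.000158 in limma), but it was 0.58 without skin array 1 and 0.77 with median centring, and the gene was then not called. Without skin array 2 it was 2.01. The remaining calls of this kind, Zfp286 in brain cortex and Zbtb1 in cerebellum, are given with the brain. When each tissue was compared only with tissues scanned on the same or linked days, all 9 calls were kept, with log2 differences from 1.18 to 3.14 for the higher calls and from -1.63 to -1.0 for the lower ones.

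**Figure D3:**
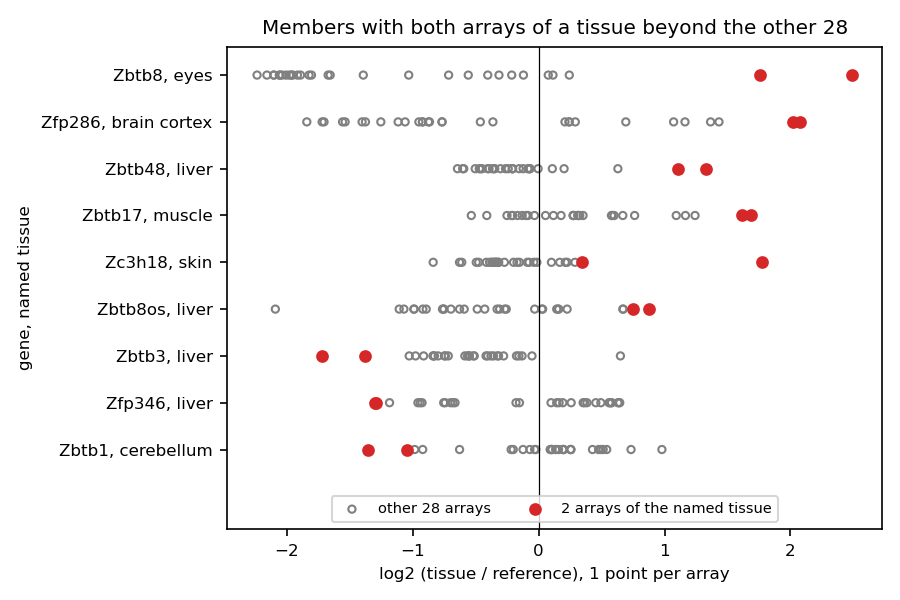
Log2 ratio to the reference on each array for the 9 members whose 2 arrays of the named tissue (filled points) lay above or below all 28 other arrays (open points). The gap was widest for Zbtb8 in eyes (1.76 and 2.49 against at most 0.24), and the lower Zc3h18 array in skin lay next to the open points.

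Brain cortex and cerebellum were pooled and compared with the other 13 tissues. Higher in brain were 5 of the 42 members (11.9%), against 14.9% of probes tested and 6.80% of the other probes of the responsiveness list, and lower was 1 member (2.38%), against 15.6% and 6.90%. With no threshold on the size, 19 members were higher at an adjusted p of 0.05, against 29.9% of probes tested, and 8 were lower, against 38.2%. The median log2 difference of the members was 0.24, against -0.10 for all probes tested and -0.01 for the rest of the list, and 30 of the 42 lay above 0. Among 7 other ways of scaling or correcting the arrays this median stayed above 0 (0.21 to 0.59) and 25 to 34 members lay above 0. The upper end came from median centring of each array, which moved the median of all probes tested from -0.10 to 0.03 and gave 13 members called higher and 0 lower. The share of all probes called in brain under that scaling was not worked out, so these counts cannot be set against the shares above.

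Zfp385c, a C2H2 protein of the Zfp385 family, had the largest difference. Its log2 ratios were 3.09 and 3.09 in brain cortex and 3.07 and 3.33 in cerebellum. The other 26 arrays ran from -0.06 through a median of 0.25 to 2.04, so there was no overlap. The difference was 2.63 ± 0.19 (adjusted p = 6.67e-10 in limma), or 6.20-fold. Outside the brain its highest arrays were bladder array 2 (2.04), large intestine array 2 (1.68) and bladder array 1 (1.52), followed by liver (1.24 and 1.33).

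Zfp286 was at 2.07 and 2.02 in brain cortex and at 1.37 and 1.07 in cerebellum. The eyes came next, at 1.16 and 1.43, and overlapped with cerebellum, while the other tissues lay at 0.69 or below. The brain difference was 2.30 ± 0.16 (adjusted p = 2.79e-10 in limma) and the difference of cortex alone from the other 14 tissues was 2.58 ± 0.22 (adjusted p = 8.79e-09 in limma). Both cortex arrays were above every other array. The gene was called lower in liver, kidney, small intestine and large intestine, with log2 differences from -1.36 to -1.02. Of these, the call in large intestine was lost without its array 2 (-0.48), that in small intestine without its array 1 (-0.98) and that in kidney with median centring (-0.98).

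Zfp142 encodes a protein with many C2H2 fingers whose human counterpart is a gene of neurodevelopmental disorder. It had log2 ratios of 1.12 and 1.37 in cortex and 1.32 and 1.35 in cerebellum, and from -1.5 to 0.52 elsewhere with a median of -0.61. The 4 brain arrays were above all the others, and the difference was 1.94 ± 0.13 (adjusted p = 1.14e-10 in limma). The lowest tissue was liver, at -1.5 and -1.06.

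Zbtb8 and Zfp281 were called higher in brain without standing apart from all other tissues. For Zbtb8 the difference was 1.17 ± 0.17 (adjusted p = 4.92e-06 in limma), with brain arrays from -0.40 to 0.24, below both eye arrays, and 6 of the 13 other tissues give only bounds, as above. With processed signals the difference was 3.19. For Zfp281, a factor of GC-rich promoters known from pluripotent cells, the brain arrays ran from -0.05 to 0.30 and the other 26 from -3.23 to 0.60. Its difference was 1.1 ± 0.16 (adjusted p = 5.38e-06 in limma), and eyes and liver were also called higher, by 1.23 ± 0.21 and 1.15 ± 0.21. These fell short of the threshold without eyes array 2 (0.93) and, in liver, with median centring (0.92).

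Zbtb1, a repressor needed in lymphoid development, was the member called lower in brain. It was at -0.98 and -0.63 in cortex and at -1.35 and -1.05 in cerebellum, whereas the other 26 arrays ran from -0.92 through a median of 0.18 to 0.98. Of the other arrays, large intestine array 2 (-0.92) alone reached into the range of the brain. The difference was -1.18 ± 0.15 (adjusted p = 1.29e-06 in limma), and both cerebellum arrays were below every other array (difference from the other 14 tissues -1.31 ± 0.21, adjusted p = 2.67e-05 in limma). With median centring of each array these differences were -0.69 and -0.88, short of the threshold. The brain difference was also short of it with slide as a random block (-0.99, adjusted p = 0.00445 in limma) and, by a narrow margin, in the Cy3 channel alone.

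Below the threshold of 1, Zfp1 (0.95 ± 0.19) and Zfp148 (0.94 ± 0.11), a GC-rich-binding relative of Zfp281, had all 4 brain arrays above every other array, and Zfp384 (-0.96 ± 0.11) had all 4 below. They are named here after their values were seen. Over the family, 4 members had all 4 brain arrays above the rest, against 7.3% of probes tested, and 1 had them below, against 5.36%.

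The brain arrays were scanned on 2 days together with eyes, lung, liver, heart, kidney and bladder only. Against these 6 tissues the differences were 2.48 for Zfp385c, 2.17 for Zfp286, 1.82 for Zfp142 and -1.19 for Zbtb1, and all 4 remained called. Those of Zbtb8 (0.69, adjusted p = 0.0024 in limma) and Zfp281 (0.47, adjusted p = 0.0209 in limma) fell below the threshold of 1. Without large intestine, fat and bone, Zfp281 also fell below it, at 0.90, as it did in the Cy3 channel alone, at 0.98.

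**Figure D4:**
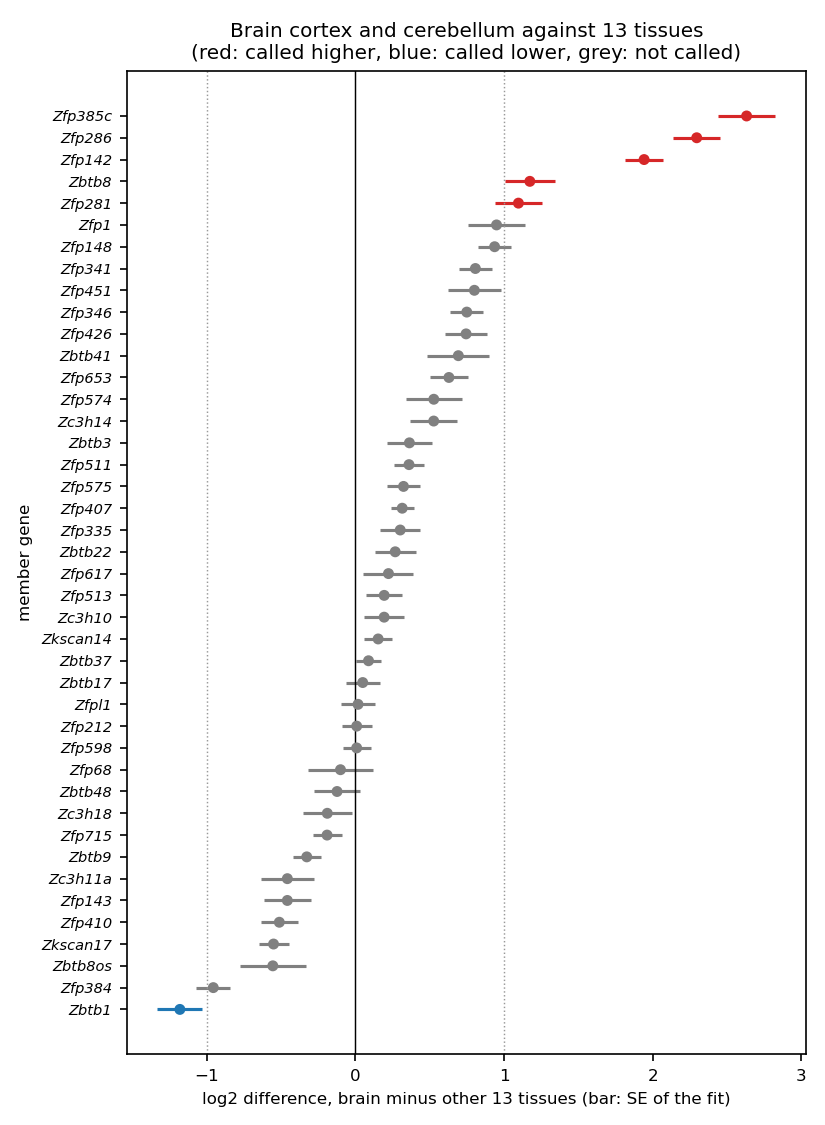
Log2 difference of each of the 42 members between brain (brain cortex and cerebellum) and the other 13 tissues, with the standard error of the fit as a bar and dotted lines at the threshold of 1. The 5 red points from 1.1 to 2.63 were called higher, the blue point at -1.18 was called lower, and 30 of the 42 points lie right of 0.

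Between brain cortex and cerebellum, 0 of the 42 members were called in limma, against 5.46% of probes tested (3.2% higher and 2.27% lower in cortex). At an unadjusted p under 0.05 there were 5 members, against 17.1% of probes tested, and 2 passed the adjusted test with no threshold on the size, against 5.03% of probes tested higher and 3.7% lower. These were Zfp575, higher in cortex (log2 difference 0.80 ± 0.21, adjusted p = 0.0202 in limma), and Zfp598, a ubiquitin ligase acting at collided ribosomes, lower in cortex (-0.64 ± 0.18, adjusted p = 0.0284 in limma). The cortex and cerebellum arrays of both genes did not overlap.

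Between heart and muscle, 2 members were called and both were lower in heart, against 6.02% of probes tested in that direction, 9.17% in the other and 15.2% in either. Zbtb17 was at 0.58 and 0.67 in heart and at 1.69 and 1.62 in muscle, a difference of -1.02 ± 0.22 (adjusted p = 0.00147 in limma). It lay so close to the threshold that it was at -0.98 without heart array 1 and at -0.99 without muscle array 1. Zfp286 was at -0.92 and -0.87 in heart and at 0.69 and 0.24 in muscle, a difference of -1.36 ± 0.30 (adjusted p = 0.00192 in limma). With scan day as a random block it missed the test (adjusted p = 0.0547 in limma).

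With no threshold on the size, 7 members were lower in heart and 0 higher, against 10.4% and 14% of probes tested. The others were Zfp341, Zkscan14, Zfp335, Zfp384 and Zkscan17, a partner of the histone methyltransferase Nsd1, with differences from -0.89 to -0.65. The median difference of the members was -0.16, against 0.04 for all probes tested, and 31 of 42 lay below 0. Heart and muscle were scanned on different days with no tissue in common, so that tissue and scan day cannot be told apart in this pair.

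In large intestine the 2 arrays disagreed, and the values of the family depended on which array was taken. Array 1 was on slide 8 and scan day 3, as was small intestine array 2, whereas array 2 was on slide 10 and scan day 4. The disagreement therefore cannot be told apart from slide and scan day. Array 1 resembled small intestine, with a median absolute log2 difference of 0.12 over the 42 members from the small intestine mean and 0 members over 1 away. Array 2 had a median of 0.79, and 15 members were over 1 away. These distances were not worked out over all probes. Between the 2 large intestine arrays the median SD was 0.62 for the members and 0.34 for all probes tested. Among the 30 arrays, array 2 was the lowest for 13 members and the highest for 9, against 14.8% and 8.54% of probes tested. The intestinal disaccharidase gene Sis was at 7.91 on array 1, at 9.02 and 9.51 in small intestine and at -0.46 on array 2. Lactase (Lct), the other small intestine marker read, was low on both large intestine arrays, at 0.64 and 0.83, against 4.61 and 5.47 in small intestine. Array 1 was thus not like small intestine in both markers. The Lct probe was, however, also raised outside the gut, at 3.82 and 2.36 in brain cortex, 1.71 and 2.01 in eyes and 2.11 on fat array 1. Over all probes tested the 2 arrays correlated at r = 0.798, and array 1 correlated best with small intestine array 2.

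The 7 members called lower in large intestine were Zfp281, Zfp68, Zbtb41, Zfp451, Zc3h14, Zfp286 and Zfp426, with log2 differences from -1.78 to -1.01. Zfp281 was at -1.77 and -3.23 there, and its other 28 arrays ran from -1.79 to 0.60 with a median of -0.87. Thus array 1 lay at the level of small intestine (-1.79 and -1.74) and array 2 below all the rest. Zfp68 was at -0.09 and -2.30, Zfp451 was at -1.58 and -3.29, and Zc3h14, whose product binds poly(A) tails, was at -0.46 and -1.74.

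Without array 2, 2 members (Zbtb41 and Zfp281) were called lower in large intestine and 0 higher, against 4.51% and 9.58% of probes tested. Without array 1 there were 11 lower and 5 higher, against 18.8% and 14.9%, the latter being Zbtb22, Zbtb3, Zc3h10, Zfp513 and Zfp574. Zbtb41 was lower in small intestine as well, at -0.65 and -0.60, against a median of 0.84 on the other 28 arrays (log2 difference -1.14 ± 0.28, adjusted p = 0.00283 in limma). Between small and large intestine the count of called members was 1, against 11.4% of probes tested (6.33% higher and 5.04% lower in small intestine). That gene was Zfp617, at 0.88 and 0.32 in small intestine and at 0.22 and -1.32 in large intestine (difference 1.15 ± 0.31, adjusted p = 0.0163 in limma). Its difference was 2.08 without large intestine array 1, 0.38 without large intestine array 2 and 0.87 without small intestine array 1. With slide as a fixed block it was 0.10 and with scan day as a fixed block 0.68. As random blocks slide and scan day gave 0.70 and 0.83, so that the gene was called under none of these blocks. It was not called with median centring, with array weights or in the fit to the 4 arrays alone either.

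**Figure D5:**
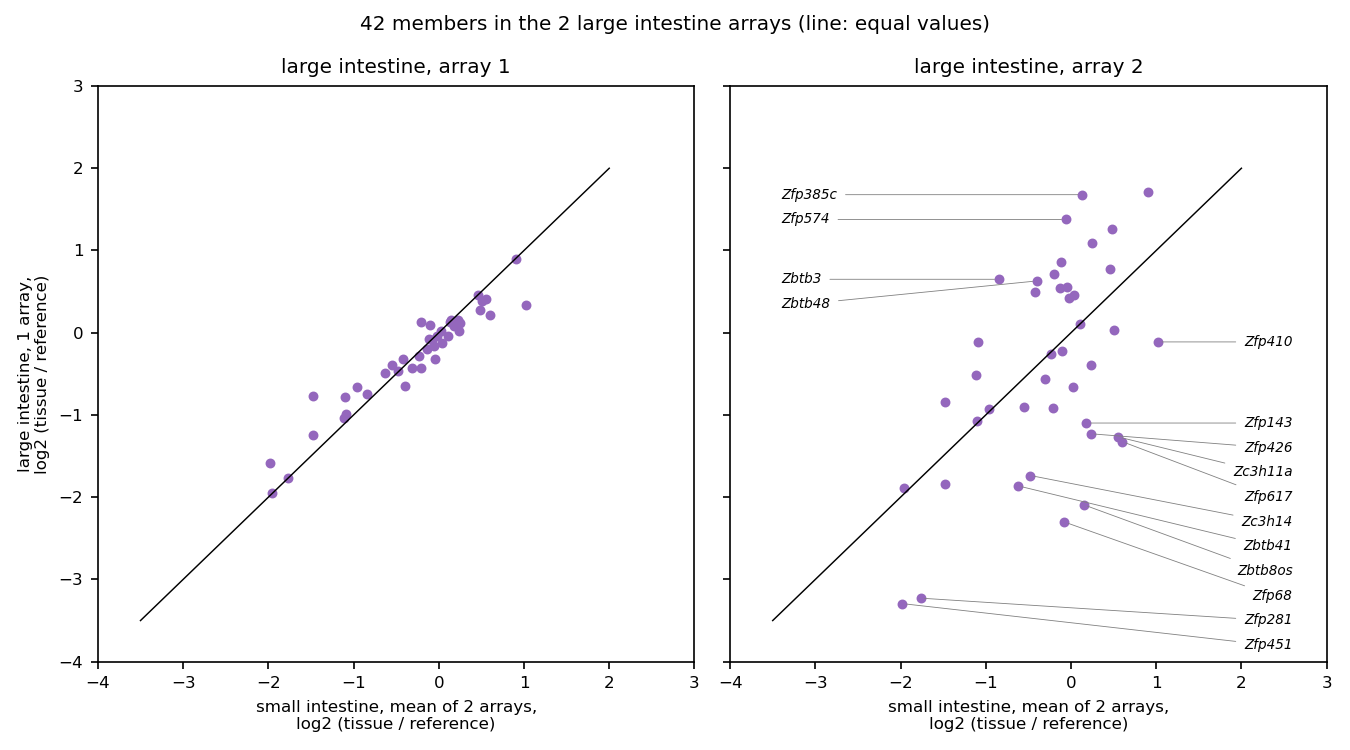
Log2 ratio to the reference of the 42 members on each large intestine array against the mean of the 2 small intestine arrays, with the line of equal values. On array 1 the points follow the line, and on array 2 there are 15 members, named in the plot, more than 1 away from it.

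Fat was the other tissue in which many members were lowest. It had the lowest mean for 7 of the 42, against 3.29% of probes tested, and the median difference from the other 14 tissues was -0.30, against -0.06 for all probes tested. Under the 7 other scalings and corrections this median stayed between -0.37 and -0.27. No member was called in fat, whose 2 arrays were on different slides and scan days. The 2 fat arrays correlated at r = 0.671 over all probes, and fat array 2 alone was the lowest of the 30 for 7 members while array 1 was for 1, against 2.6% and 3.39% of probes tested.

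Genes that work with zinc finger proteins were read from a list of 51, of which 30 had a probe. The F-test was passed by 28 of the 30 (93.3%), close to the 90.7% of probes tested, and the median information of all probes tested was 0.159 bits. Of 26 chromatin and co-repressor partners, 13 had a probe and 12 passed the F-test, with a median information of 0.0558 bits (0.0114 to 0.158). The exception was Setdb1, the methyltransferase of KRAB repression (adjusted p = 0.0699). Of 15 RNA partners of CCCH proteins, 10 had a probe and all 10 passed, with a median of 0.0354 bits (0.0183 to 0.176). Of 10 other C2H2 factors, 7 had a probe and 6 passed, the exception being Prdm14 (adjusted p = 0.253), with a median of 0.0837 bits (0.00967 to 0.253).

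In the brain comparison 1 of the 30 partners was called lower, against 15.6% of probes tested, the histone deacetylase Hdac1 (-1.23 ± 0.13, adjusted p = 1.45e-07 in limma, but -0.76 with median centring), and 1 higher, against 14.9%, the C2H2 factor Klf7 (1.20 ± 0.12, adjusted p = 6.91e-08 in limma). The other chromatin partners with a probe, namely Setdb1, Setdb2, Hdac3, Hdac4, Cul3, Chd4, Mta2, Mbd3, Gatad2b, Dnmt1, Ehmt1 and Kdm1a, had brain differences from -0.94 (Mta2) to 0.60 (Gatad2b). The RNA partners Exosc2, Exosc3, Srrt, Cpsf1, Cpsf2, Zcchc7, Zcchc8, Rc3h1, Unk and Mkrn2 ran from -0.48 (Exosc3) to 0.72 (Zcchc7). The C2H2 factors Ctcf, Maz, Prdm4, Prdm14, Gli2 and Ikzf2 ran from -0.64 (Ikzf2) to 0.67 (Ctcf).

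Single tissues were also compared with the other 14 for the partners. Of the 30, 12 (40%) were called higher in at least 1 tissue, 9 (30%) lower and 15 (50%) either, against 67.3%, 46.7% and 71.5% of probes tested. In muscle, Mkrn2 (1.63 ± 0.13), Cul3 (1.40 ± 0.30), the lymphoid factor Ikzf2 (1.37 ± 0.12) and Hdac4 (1.14 ± 0.15) were called higher, and the maintenance DNA methyltransferase Dnmt1 (-1.59 ± 0.22) and Hdac1 (-1.02 ± 0.18) lower. In eyes, Ikzf2 (1.60 ± 0.12), Ctcf (1.11 ± 0.24) and Zcchc7 (1.03 ± 0.28) were called higher and Rc3h1 (-1.03 ± 0.19) lower. In liver Setdb2 was higher (1.31 ± 0.20), and Gli2 (-1.51 ± 0.22) and Prdm4 (-1.23 ± 0.28) were lower. Large intestine again held lower calls for Cul3 (-1.99 ± 0.30), Ctcf (-1.18 ± 0.24) and Mkrn2 (-1.02 ± 0.13), with the disagreement of its arrays described above, and Hdac1 was called higher there (1.22 ± 0.18). In skin, Gli2 (1.60 ± 0.22), Ikzf2 (1.19 ± 0.12), Dnmt1 (1.19 ± 0.22) and Mta2 (1.16 ± 0.16) were called higher. In bladder, Gli2 (1.65 ± 0.22) and Ikzf2 (1.19 ± 0.12) were called higher, and in kidney Gli2 was lower (-1.33 ± 0.22). Klf7 was called higher in lung (1.60 ± 0.17), cerebellum (1.18 ± 0.17) and brain cortex (1.05 ± 0.17), where Hdac1 was lower (-1.29 ± 0.18). The other calls were those of Mkrn2 in heart (1.08 ± 0.13), Dnmt1 in bone (1.21 ± 0.22), Hdac1 in fat (1.04 ± 0.18) and Mbd3 in small intestine (-1.08 ± 0.15). Dnmt1 was at -0.01 and -1.38 in bone and its difference was 0.52 without bone array 1, and Hdac1 was at 0.67 and 1.49 in fat and its difference was 0.63 without fat array 2, so that both calls rested on 1 array. Of the 32 calls of partners in a single tissue, 12 were lost without 1 of the arrays of that tissue. These were all 4 in large intestine, Hdac1 and Hdac4 in muscle, Zcchc7 and Rc3h1 in eyes, Dnmt1 in skin and in bone, Hdac1 in fat and Klf7 in brain cortex. Under 6 other scalings or corrections 21 of the 32 were lost under at least 1, and whether partners and members were called in the same tissues was not tested.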

How the data were processed

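Arrays were two-colour Agilent oligonucleotide arrays scanned by the authors and extracted with Agilent Feature Extraction 9.5.1.1 per the file headers; dyes were not swapped. The deposited spot files hold, for each channel, the mean and background intensity of a spot, with flags (other values: outlier, saturation and above-background marks). The deposited value table of the authors is on a log10 scale. Over 11,596 bright probes its values rose with processed log10 Cy3 (slope 0.998) and fell with the reference's deviation (slope -0.997), so it is a Cy3 level adjusted for the reference; its array medians were 2.50 to 2.65, and how it was centred is not given in the sources used here.

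Log2(Cy3/Cy5) was computed from the mean signals by normexp (offset 50) and loess. Control spots had no weight, 475 flagged spots were removed, 0 were saturated, and spots of a probe were averaged; 173 probes tested lacked a value on some array. Between 53.9% and 76.9% of spots were well above background in Cy3. Symbols came from the study's supplementary probe lists by probe ID; 1,919 genes were matched for the other probes of the responsiveness list; 41 of 42 member symbols were current RefSeq symbols and 1 was a synonym. Tissue means were fitted to the 30 arrays in limma 3.58.1 (R 4.3.3), with eBayes and Benjamini-Hochberg over the 21,025 probes tested. All p-values are two-sided. Information is log2(15) minus the entropy of the tissue shares of the linear ratio. The p-values rest on 1 spread per probe, pooled over the 2 arrays of each of the 15 tissues and moderated across probes. The median SD of the members between arrays ran from 0.06 in heart to 0.62 in large intestine. A p-value thus does not measure the spread of the tissue it is given for, and it can be too small where the arrays of that tissue disagree. The number of arrays per tissue limits the precision.

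Named with values by rule were members called in a tissue with both arrays beyond the other 28, the largest calls in brain and in each organ pair, the 5 most and 5 least uneven, the members that are not zinc finger proteins, and the partner lists. The members and lists were chosen with earlier results of these data known. The files show 11 slides and 5 scan days. Cerebellum, eyes, liver, heart, kidney, bladder, skin and stomach had both arrays on 1 slide, so the spread between their arrays is within a slide. The arrays of brain cortex, lung, large intestine, fat and bone were split over scan days. With tissue in the model, the estimated correlation between arrays of a slide was 0.69. Slide, scan day, replicate number, background correction, normalization, filters, thresholds and each array left out were tried as alternatives. Arrays with the same replicate number showed little common deviation (median r of 0.0474 over 105 pairs of tissues). The values ran from -0.25 to 0.34, and 33 pairs were over 0.1. This cannot decide whether tissues share animals, because in bone and fat the number differs from the individual's identifier in the labels. Pairing by individual was not tested. No protein sequences were used here.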

Additional observations from a re-analysis of the deposited data

How the results depend on the processing

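The replicate block gave the same 18 higher and 18 lower calls in number, and 40 members in the F-test. Counts of higher, then lower, calls in a tissue were 33 and 29 with median centring, 29 and 32 with processed signals and 28 and 32 with the authors' table. Of all probes, 65.7%, 82.3% and 82.1% were then higher in at least 1 tissue, against 67.3% in the main fit. Lower in at least 1 tissue were 45.7%, 72% and 69.8%, against 46.7%. Thresholds of 2 and of none gave 4 and 0, and 98 and 104. Members higher in brain were 13 with median centring, 2 at the threshold of 2, 19 with none, and 3 within the same scan days. Members lower in brain were 0 with median centring, at the threshold of 2 and with slide as a random block, 2 with processed signals and with the authors' table, and 8 with no threshold. Cortex and cerebellum differed in 2 members with no threshold. Heart and muscle differed in 4 with processed signals and with the authors' table, 0 at the threshold of 2 and 7 with none. Small and large intestine differed in 0 with median centring, at the threshold of 2, with either slide or scan day as a block, fixed as well as random, with array weights and in the fit to the 4 arrays alone, and in 2 with an offset of 16 and with no threshold. Median information was 0.0714 bits with processed signals and with the authors' table. Leaving out each array in turn gave 38 to 42 members in the F-test, 17 to 25 higher and 14 to 22 lower calls, 5 to 6 members higher and 1 to 2 lower in brain, 0 between cortex and cerebellum, 1 to 3 between heart and muscle, 0 to 15 between small and large intestine and a median information of 0.0466 to 0.0723 bits. The highest value for members lower in brain came without cortex array 1, and that for information without large intestine array 1. For the F-test, brain and the organ pairs, shares of all probes were worked out only in the main fit, at its threshold and with none. The counts under other settings thus show how they move with the setting and are not a result about the members.

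The 18 named differences changed sign under none of the settings that could be fitted. Over these settings 252 values stayed on their side of the threshold and 19 fell short of it, and with an array left out these numbers were 533 and 7. These numbers hold for the 18 named differences only, and the calls of members in a single tissue were less stable as a set. Of these 36 calls, 13 were lost without an array of that tissue, and 12 were lost under some other scaling or correction. Only 17 of the 36 were kept under every scaling and with every array left out. Slide and scan day as fixed blocks could be fitted only for cortex against cerebellum and for small against large intestine; they were not run for the other results. Aquantile scaling leaves ratios unchanged by construction. Scan day as a block, the same-day comparison the removal of large intestine, fat and bone, and the settings for partners and for members called in a tissue were chosen after seeing the data. The cause of the changes above was not tested.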
